A study of Mus musculus with 12 samples.

Results

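The 3 mammary tumors of WAP-SVT/t mice in this series were set against 3 lactating mammary glands of NMRI mice that carry no transgene. These samples were chosen by their titles, which number the tumors 1 to 3 and the glands I to III, and they make up 6 of the 12 arrays of the series. All animals were NMRI females. The glands came from dams at the very start of lactation (numbered 1 to 3 here). In WAP-SVT/t mice the promoter of the whey protein gene Wap drives the SV40 T and t antigens, which the labels place in mammary epithelial cells only. The stage of the mammary gland in the tumor-bearing animals is not given in the sources used here, so tumor and stage of the gland cannot be told apart. The 6 other arrays held 3 lactating glands of WAP-SVT/t mice, called transgenic glands below, and 1 array each of 3 breast cancer lines: ME-A, the revertant ME-B and the retransformed ME-B-T/t. They are shown beside the main groups where they help to read a value.

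At the onset of lactation the alveolar epithelium of the gland makes caseins, whey proteins and fat globules under the control of prolactin, and few of its cells divide. Prolactin acts through STAT5, which binds GAS sites in milk protein genes. Large T antigen binds the p53 and RB family proteins, and the RB family otherwise holds E2F factors in check, which activate genes of DNA replication. Genes of mitosis are switched on later in the cell cycle, through CHR elements and CCAAT boxes in their promoters.

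All signals given are array intensities brought to a common scale. Folds and log2 differences, given as tumors minus NMRI glands ± standard error, were computed after values under 57.5 had been raised to that floor, and a fold is written as "at least" where a whole group was under it. A gene was called at an adjusted p under 0.05. Groups of 3 arrays limit the precision, and the labels do not say that each sample was a separate mouse, so p values measure the spread between these samples. RNA quality differed between the groups: the signal of the 3-prime Gapdh control over that of the 5-prime one, near 1 in intact RNA, was 12.9, 2.28 and 40.3 in NMRI glands 1 to 3 and 5.63, 0.982 and 0.969 in tumors 1 to 3. The part of RNA quality in the differences was not tested beyond a fit with this ratio as a covariate, which called 794 genes higher and 619 lower. Of the lists described below, that fit left 6 adipocyte, 6 basal, 3 endothelial, 0 skeletal muscle, 9 ribosomal, 3 oxidative phosphorylation and 4 endoplasmic reticulum genes called lower. It left 9 macrophage, 5 TGF-beta, 3 cadherin switch and 3 interferon genes called higher.

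Of 7898 genes tested, 1942 were called (24.6%). In the tumors 1022 genes were higher (12.9%) and 920 lower (11.6%), of which 866 and 651 differed by 2-fold or more and 80 and 66 by 8-fold or more. The median log2 difference over all genes tested was 0.02. The 3 tumors and the 3 glands did not overlap in 3466 genes (43.9%), and 1917 of the called genes were among these. In 82 of the higher genes all NMRI glands were at the floor, and in 31 of the lower genes all tumors were. Genes dim in both groups were not tested, so a gene that is dim in 1 group could pass only through another, and counts among tested members of a list are read as descriptions beside the shares over all genes. The count of lower genes rested on each gland: it was 529 without NMRI gland 1, 583 without gland 2 and 588 without gland 3, and without gland 1 the count of all called genes was 1228.

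**Figure D1:**
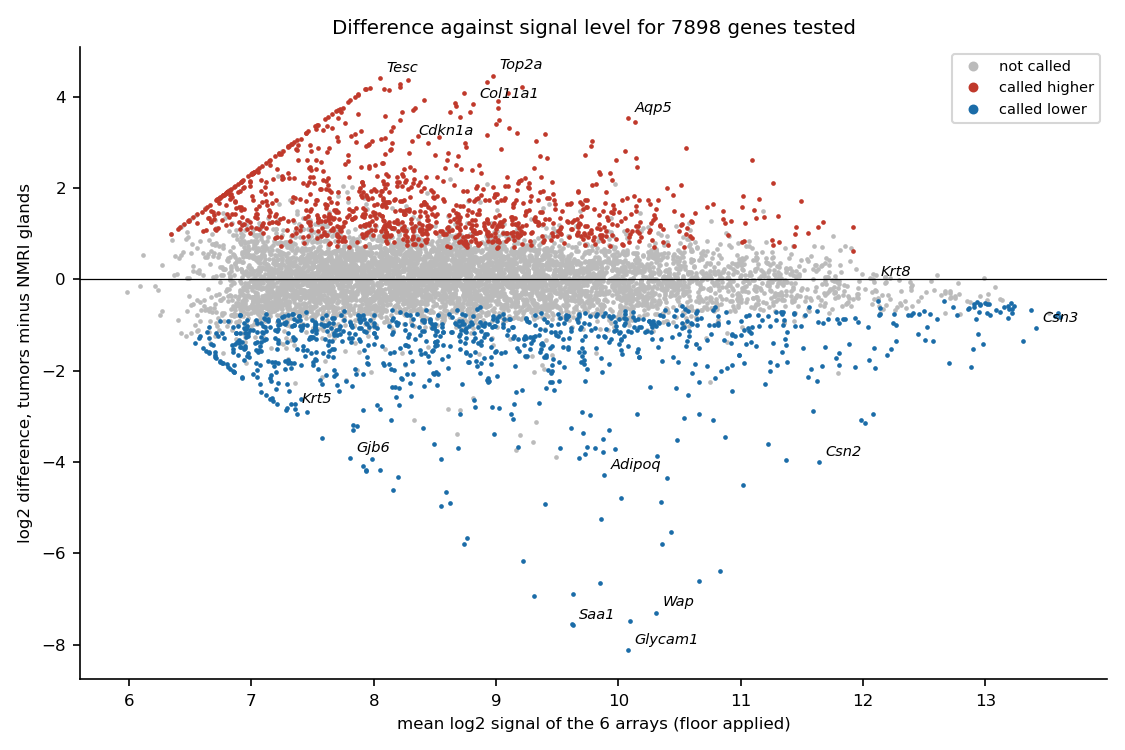
Log2 difference between tumors and NMRI glands (vertical axis) against the mean log2 signal of the 6 arrays (horizontal axis) for 7898 genes, with red points for the 1022 called higher, blue for the 920 called lower and grey for the rest. The falls reached further than the rises, down to -8.12 for Glycam1 against 4.46 for Top2a, and the straight lower and upper edges at the left come from the floor.

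The genes with the furthest falls encode products of the lactating epithelium. Glycam1, a mucin-like glycoprotein of milk, had signals of 19719.7, 19538 and 15221 in the NMRI glands and 14.1, 81.8 and 3.41 in the tumors. All 3 tumors lay far below all 3 glands, at 279-fold lower (log2 difference -8.12 ± 0.28, adjusted p = 6.33e-08). Wap, the whey acidic protein gene whose promoter drives the transgene, had 16475, 16613 and 14799.5 in the glands and 96.3, 119 and 90.3 in the tumors. It was 157-fold lower (log2 difference -7.30 ± 0.40, adjusted p = 1.45e-06), and the transgenic glands, at 6369, 3139 and 1603, lay between both groups. Lalba, alpha-lactalbumin, which lactose synthesis requires, fell from 18611, 16696 and 13059 to 215, 252 and 79.8, a 97.8-fold difference. Among whey and milk defence proteins, 12 of 15 tested members (20 listed) were lower and 0 higher, with a median of -4.36. The lipase gene Cel was 99.9-fold lower and the amino acid oxidase gene Lao1 178-fold lower. Both were also low in the transgenic glands, at 131, 113 and 174 for Cel and 328, 184 and 213 for Lao1. Of the 3 members not called, the lactoperoxidase gene Lpo had a log2 difference of -1.78 ± 0.61 (adjusted p = 0.0534), Lcn2 one of -0.73 and Chil1 one of 1.18.

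All 5 casein genes were lower in the tumors, with a median of -4.00, but by very different amounts. Csn1s2b had 12404, 13458 and 7474 in the glands and 26.2, 31.4 and 26.9 in the tumors, a fall of at least 187-fold (adjusted p = 9.22e-06). Csn1s2a went from 17258, 16678 and 16108 to 788, 173 and 11.6, and was 83.97-fold lower. Csn2, beta-casein, had 12496, 13934 and 11935 in the glands and 2543, 1496 and 133 in tumors 1 to 3. Tumor 3 was the lowest of the tumors for both genes, and no tumor reached the level of a gland. Csn1s1 was only 3.75-fold lower, at 14439, 15763 and 13690.1 against 3241, 5308 and 3427. Csn3, kappa-casein, which keeps casein micelles in solution, was 2.09-fold lower, at 15333, 16619 and 15337 against 9142, 9192 and 5129. Tumors 1 and 2 were near the highest signals of their arrays, 10429 and 9348, and after quantile normalization Csn3 was not called (adjusted p = 0.441), which left 4 of the 5 caseins lower. So Csn3 and Csn1s1 messages were still far above the floor in every tumor, whereas Csn1s2b was under it in all 3. Of the lines, ME-A had a Csn3 signal of 1807, ME-B one of 102 and ME-B-T/t one of 139.8.

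The promoters of the casein, whey and fat globule genes, most of which were lower, were searched for the STAT5-type GAS motif TTCNNNGAA, which reads the same on both strands. The windows run from 250 bases before to 50 after the start of a gene and come from RefSeq (GRCm38.p6). A match was found in 5 of 21 of these genes with a window (23.8%), in 6.69% of all genes tested and in 8.47% of all genes in the table. The windows of Csn2 (chr5:87699376-87699675, minus strand) and Glycam1 (chr15:103565032-103565331, minus strand) each held 1 match, shown in capitals, to set the motif beside genes with large falls. The Wap window held none of these letters.
Csn2: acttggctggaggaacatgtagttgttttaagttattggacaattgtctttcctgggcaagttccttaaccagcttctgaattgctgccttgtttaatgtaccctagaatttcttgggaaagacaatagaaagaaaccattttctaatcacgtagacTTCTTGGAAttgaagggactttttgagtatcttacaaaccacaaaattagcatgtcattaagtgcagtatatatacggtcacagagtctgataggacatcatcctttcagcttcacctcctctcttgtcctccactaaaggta
Glycam1: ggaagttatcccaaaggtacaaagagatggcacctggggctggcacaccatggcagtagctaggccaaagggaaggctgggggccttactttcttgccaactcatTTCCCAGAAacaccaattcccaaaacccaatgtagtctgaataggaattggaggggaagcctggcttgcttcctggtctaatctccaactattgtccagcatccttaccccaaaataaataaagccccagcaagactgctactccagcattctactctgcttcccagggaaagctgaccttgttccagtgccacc

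Genes that package and secrete milk fat were lower as well. Of 10 genes of milk fat globule secretion, 9 were lower and 0 higher, with a median of -3.20, and Plin3 alone was not called (log2 difference 0.40). Btn1a1, butyrophilin, a coat protein of the fat globule, had 11287, 10487 and 7871 in the glands and 297, 140.4 and 129 in the tumors. It was 55.7-fold lower with no overlap. Fabp3, a fatty acid binding protein, was 119-fold lower, at 12684, 7319 and 6919 against 116, 37.6 and 42.9. Cidea, a lipid droplet protein, was 72.4-fold lower, Xdh, which also organizes the globule membrane, 10.96-fold lower and the droplet coat gene Plin2 7.73-fold lower.

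Fatty acid synthesis had 9 of 17 tested members lower and 1 higher, with a median of -1.33. The transgenic glands had a median of -1.12 against the NMRI glands. Olah, the thioesterase that releases medium-chain fatty acids of milk, had 5394, 3998 and 1500.1 in the glands and 1.78, 2.10 and 2.21 in the tumors and was at least 55.4-fold lower. Acly, which makes cytosolic acetyl-CoA, was 3.89-fold lower, Me1, the malic enzyme gene, 4.46-fold and Fads1, a desaturase gene, 4.91-fold. The call of Acly was lost in 2 of 26 other settings, among them the use of the probe set with the largest SD. The member that rose was Mid1ip1, with a log2 difference of 0.85. In triglyceride assembly 7 of 16 were lower, among them Gpam, which begins glycerolipid synthesis, at 3.09-fold. In cholesterol synthesis 1 of 17 members was called, Tm7sf2 at 2.25-fold lower, and the median was -0.06. No member was called without NMRI gland 1, NMRI gland 2 or any 1 tumor. The call of Tm7sf2 was lost in 7 of 25 other settings. The median rested on NMRI gland 3. There the list's mean log2 signal was 7.91, against 9.06 and 9.22 in glands 1 and 2 and 8.54 to 8.82 in the tumors. Without NMRI gland 3, the number of lower members was 3 and the median was -0.39. The regulator Srebf2 had 345, 348 and 214 in the glands and 449, 921 and 439.7 in the tumors and was not called (adjusted p = 0.103).

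Transporters that load milk with minerals and nutrients had 9 of 22 tested members lower and 1 higher, with a median of -0.99. The median of the transgenic glands against the NMRI glands was -1.14, so this fall was not particular to the tumors. The phosphate transporter gene Slc34a2 fell from 7864, 2591 and 2537 in the NMRI glands to 97.04, 168 and 114 in the tumors, or 30.3-fold. The zinc and manganese transporter gene Slc39a8 was 25.1-fold lower and Abcg2, which carries riboflavin and drugs into milk, 12.96-fold lower. Aqp5, a water channel of secretory glands, moved the other way. It had 363, 362 and 245 in the glands, 384, 501 and 216 in the transgenic glands and 3164, 4326 and 3643 in the tumors, 11.6-fold higher than in NMRI glands (adjusted p = 2.71e-05).

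The regulators of lactation showed smaller differences, and 4 of 15 were lower and 1 higher (median -0.05). Without NMRI gland 3 the higher ones were 3, and without NMRI gland 1 the median was 0.18. Elf5, a transcription factor of alveolar cells, had 7781, 7179 and 7969.9 in the glands and 1495, 1900.3 and 2835 in the tumors. Every tumor lay below every gland, at 3.81-fold lower (adjusted p = 0.000538). Stat5a was 2.61-fold lower (1820.0, 1093 and 618 against 411, 447 and 377, adjusted p = 0.0278), and this call was lost in 8 of 26 other settings. Of the STAT5 target genes that restrain cytokine signalling, Cish was 2.49-fold lower and Socs2 5.23-fold higher. Socs2 had 511, 416 and 1876 in tumors 1 to 3, with tumor 3 far above the other tumors. The prolactin receptor gene Prlr was not analysed here, as no probe set named it alone. Luminal epithelium markers as a list had mean log2 signals of 10.17 to 10.91 in the glands and 10.25 to 10.70 in the tumors, so these groups overlapped where the milk genes did not. In bulk tissue, fewer cells of a type and less RNA per cell cannot be told apart.

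Acute phase genes made by the lactating NMRI gland were among the largest falls. The serum amyloid genes Saa1 and Saa2 had 10943, 9699 and 12258 and 6534, 7095 and 7364 in the glands, and no tumor reached the floor, with 23.8, 17.4 and 36.7 for Saa1. They were at least 189.9-fold lower and at least 122-fold lower. The transgenic glands, also lactating, were low too, at 102, 425 and 33.9 for Saa1 and 32.3, 159 and 30.8 for Saa2. The line ME-A, in contrast, had signals of 4326 for Saa1 and 2567 for Saa2, each under the floor in both other lines. Lbp, the lipopolysaccharide binding protein gene, was 3.05-fold lower and the orosomucoid gene Orm1 7.48-fold lower. Over involution and acute phase genes, 7 of 28 were lower and 1 higher, with a median of -0.27. Without NMRI gland 3 the higher ones were 4 and the median 0.05, without tumor 3 they were 3 and 0.01, and after quantile normalization the median was 0.11. One of the 7, Cp, had probe sets called in both directions, 2 higher and 4 lower of 7, and is given no direction.

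**Figure D2:**
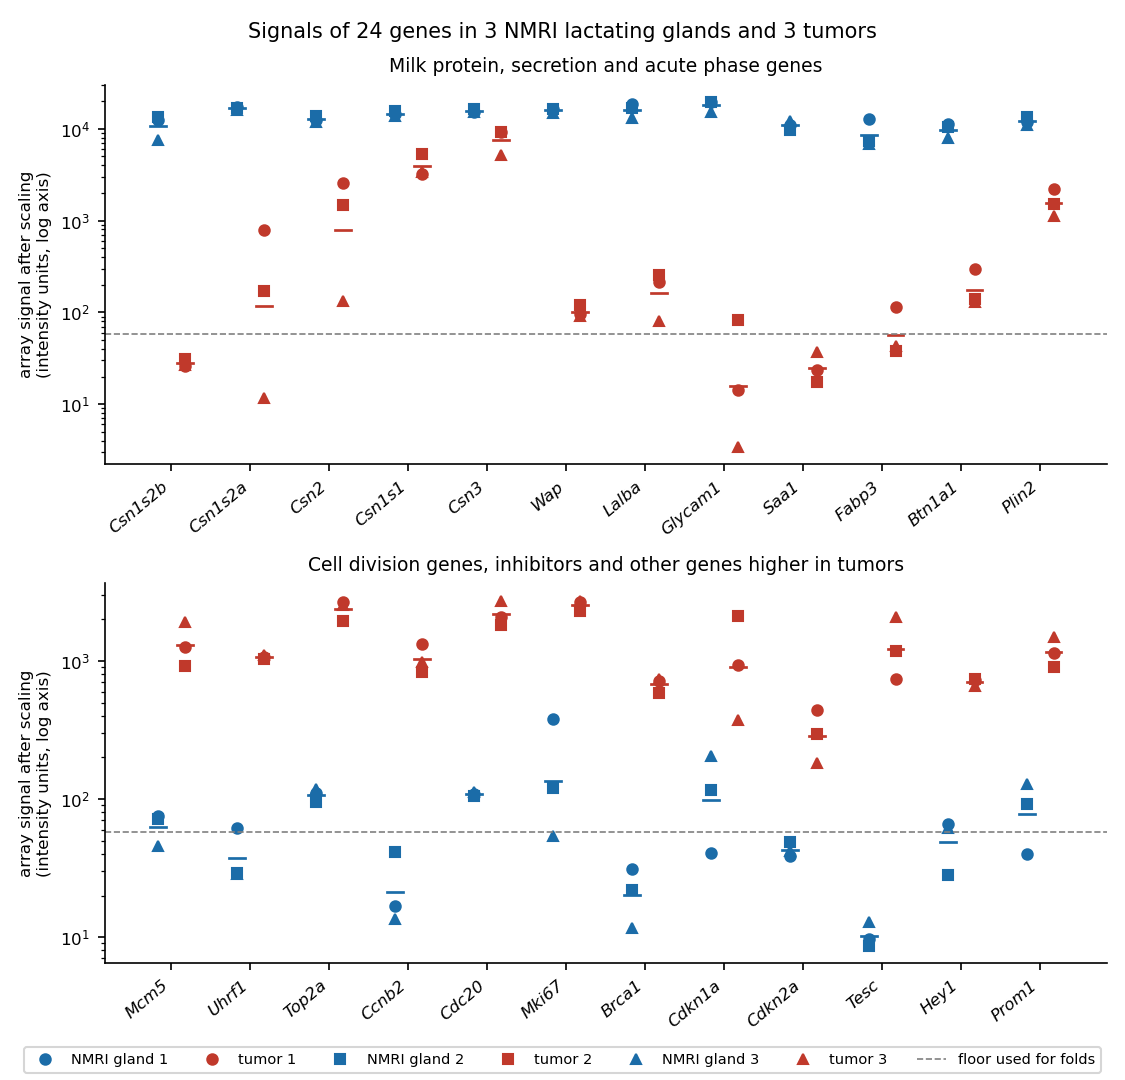
Signals of 24 genes on a log axis in NMRI glands 1 to 3 (blue) and tumors 1 to 3 (red), with the shape of a point giving the sample number, a short line the geometric mean of 3 arrays and the dashed line the floor used for folds. The upper panel orders the caseins by the size of their fall, from Csn1s2b to Csn3, and in the lower panel every tumor lies above every gland for all 12 genes.

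Genes of cell division were much higher in the tumors. Top2a, which untangles sister chromosomes, had the largest fitted rise, an order that depends on the floor for genes dim in the glands, with 111, 94.9 and 117 in the glands and 2678, 1937 and 2542 in the tumors. It was 22.01-fold higher (log2 difference 4.46 ± 0.25, adjusted p = 1.45e-06). Mki67, which encodes the proliferation antigen Ki-67, had 381, 121 and 53.8 in the glands and 2668, 2299 and 2715 in the tumors, 18.5-fold higher. The highest gland, gland 1, was still far below the lowest tumor. The transgenic glands had 2654, 2024 and 1699.8 for Top2a and 4055, 3159.6 and 3254 for Mki67, so all 3 lay above the tumors for Mki67. The lines had 1954, 2078 and 2143 for Top2a.

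Replication genes rose together. In origin licensing and the MCM helicase 16 of 21 tested members (23 listed) were higher and 0 lower, with a median of 2.35. Mcm5, a subunit of the helicase, had 75.5, 71.5 and 45.4 in the glands and 1271, 918 and 1919 in the tumors and was 19.3-fold higher (adjusted p = 1.07e-05). Mcm3 was 13.99-fold higher, Mcm4 6.36-fold higher and Gmnn, geminin, which blocks licensing after S phase, 9.45-fold higher. The 5 members not called were the origin recognition genes Orc2, Orc3, Orc4 and Orc5 and the GINS subunit gene Gins4, with log2 differences of 0.27 to 0.63. Among genes of DNA replication and nucleotide supply 31 of 35 tested members (39 listed) were higher and 0 lower, with a median of 2.35. Uhrf1, which recruits the maintenance DNA methyltransferase, had 61.5, 29.3 and 28.5 in the glands and 1060.5, 1035 and 1111 in the tumors, and was 18.2-fold higher (adjusted p = 8.41e-07), with glands 2 and 3 raised to the floor. The thymidine kinase gene Tk1 was 18.01-fold higher, the single-strand binding subunit gene Rpa2 10.8-fold higher and Pola1, the catalytic subunit of primase-polymerase, 7.53-fold higher. The 4 members not called were Pold3, Rfc2, Pole4 and Fen1, with Pold3 at -0.82 and the others at 0.32 to 0.38.

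Of the lists with more higher than lower members, mitosis had the largest median: 47 of 49 tested members (53 listed) were higher and 0 lower, with a median of 2.92, and Cks1b (0.46) and Foxm1 (-0.21) were not called. Cdc20, which switches on the anaphase-promoting complex, had 109, 106 and 112 in the glands and 2067, 1810.5 and 2738 in the tumors, 19.9-fold higher. Ect2, which starts cytokinesis, was under the floor in all glands and at least 14.7-fold higher, and Anln, anillin, was 17.9-fold higher. Of 10 mitotic kinesin genes tested, 7 were higher, with Kif2c at least 13.2-fold and Kif22 12.7-fold higher. Kif2a, Cenpe and Kif18a were not called, at log2 differences of 0.85, 1.13 and 0.41. The 4 lists of replication and mitosis were also higher in the transgenic glands than in the NMRI glands. Their medians there were 2.14 for licensing, 2.25 for replication, 2.93 for mitosis and 2.01 for kinesins. In these 4 lists no count of higher members changed by over 1.5 times without any 1 of the 9 tissue arrays. Without NMRI gland 2, 1 gene of the replication list was called lower.

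Cyclins and their kinases had 7 of 17 tested members higher and 0 lower, with a median of 0.71. The transgenic glands had a median of 0.73 against the NMRI glands. Ccnb2, a B-type cyclin of mitosis, had 16.7, 41.6 and 13.5 in the glands and 1316, 834 and 991 in the tumors, a rise of at least 17.9-fold (adjusted p = 2.41e-06). Its partner Cdk1 was 16.98-fold higher, Ccna2, cyclin A, 11.3-fold higher and Ccne2, cyclin E, at least 4.48-fold higher. Ccnd1, cyclin D, had 737, 988 and 433 in the glands and 1209, 1779.7 and 379 in the tumors, which overlapped, and was not called (log2 difference 0.46 ± 0.51, adjusted p = 0.548).

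The promoters of these genes differed in the motifs they held. An E2F motif (TTTCCCGC, TTTGGCGC, TTTCGCGC or TTTGCCGC, either strand) was found in 14 of 48 genes of both replication lists with a window (29.2%), in 7.84% of the 51 genes of the mitosis and kinesin lists, in 4.46% of all genes tested and in 2.32% of all genes in the table. A CHR element (TTTGAA or TTCGAA, either strand) was found in 35 of those 51 mitosis genes (68.6%), in 20.8% of the replication genes, in 13.7% of all genes tested and in 19.4% of all genes in the table. The CCAAT box (CCAAT, either strand) had a match in 70.6% of the mitosis genes and in 38.5% of all genes tested. These are descriptions of letters in a window of 300 bases, not sites shown to be bound. The window of Mcm5 (chr8:75109259-75109558, plus strand) is shown for the replication genes, with its 2 overlapping E2F matches in capitals. Those of Ccnb2 (chr9:70421505-70421804, minus strand) and Cdc20 (chr4:118437294-118437593, minus strand) are shown for the mitosis genes, with CHR and CCAAT matches in capitals.
Mcm5: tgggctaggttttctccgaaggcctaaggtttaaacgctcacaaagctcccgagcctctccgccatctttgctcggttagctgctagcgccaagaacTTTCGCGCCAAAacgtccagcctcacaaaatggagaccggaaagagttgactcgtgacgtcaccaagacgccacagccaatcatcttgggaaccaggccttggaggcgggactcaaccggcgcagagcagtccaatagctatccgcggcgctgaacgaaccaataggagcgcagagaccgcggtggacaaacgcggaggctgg
Ccnb2: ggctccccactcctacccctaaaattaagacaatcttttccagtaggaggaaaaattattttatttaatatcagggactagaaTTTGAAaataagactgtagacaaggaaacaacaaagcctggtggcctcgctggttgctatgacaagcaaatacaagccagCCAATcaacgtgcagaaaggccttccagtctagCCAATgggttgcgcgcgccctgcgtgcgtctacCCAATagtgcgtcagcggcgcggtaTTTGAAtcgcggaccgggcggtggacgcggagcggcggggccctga
Cdc20: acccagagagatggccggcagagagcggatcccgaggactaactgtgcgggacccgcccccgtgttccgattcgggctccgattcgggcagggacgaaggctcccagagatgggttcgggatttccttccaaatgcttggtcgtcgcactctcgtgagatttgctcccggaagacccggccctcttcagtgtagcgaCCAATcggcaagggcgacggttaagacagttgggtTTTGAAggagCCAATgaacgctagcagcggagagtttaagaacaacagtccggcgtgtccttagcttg

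Genes of the proteins bound by large T antigen, and of their partners and targets, were examined next. Among RB family members and E2F and DP factors, 6 of 12 tested were higher and 0 lower (median 0.66). Their median in the transgenic glands against the NMRI glands was 0.79. Rbl1, the RB relative p107 and itself an E2F target, had 134, 130.4 and 138 in the glands and 710.4, 513 and 707 in the tumors, 4.75-fold higher (adjusted p = 4.66e-05). E2f8, a repressor of the E2F family, was at least 8.32-fold higher and Tfdp1, the DNA-binding partner of E2F factors, 4.04-fold higher. Rb1 had 1015, 1402 and 2147 in the glands and 781, 771 and 954 in the tumors. All tumors lay below all glands, but the difference was not called (log2 difference -0.80 ± 0.29, adjusted p = 0.0619).

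Of 8 CDK inhibitor genes listed, 5 were tested and all 5 of those were higher in the tumors, with a median of 1.63. Cdkn2a, which encodes p16 and p19ARF, had 38.4, 48.8 and 42.1 in the glands, 38.8, 45.4 and 22.96 in the transgenic glands and 440.4, 294 and 181 in the tumors. It passed the filter on dim genes through the tumors, and was at least 4.98-fold higher (adjusted p = 0.000628). ME-A had 565, and the other lines were under the floor. Cdkn1a, or p21, a p53 target, had 40.5, 117 and 204 in the glands and 936, 2126 and 374 in the tumors, with tumor 2 highest, and was 8.14-fold higher. Cdkn2d was 3.09-fold higher and Cdkn1b, or p27, 2.41-fold higher. Without NMRI gland 2, Cdkn1b and Cdkn2c lost their calls, and without tumor 2 or tumor 3 Cdkn2c lost its call and Cdkn2a was no longer tested, so that 3 of the 5 were called each time. Of 24 tested p53 target genes 7 were higher and 1 lower (median 0.42). Psrc1, a spindle protein gene, was at least 12.98-fold higher, the receptor gene Epha2 4.71-fold and Ddit4, an inhibitor of mTORC1, 4.63-fold. Mdm2, which targets p53 for degradation, had 481, 371 and 351 in the glands and 1169, 784 and 462 in the tumors, and was not called (adjusted p = 0.0633). Without NMRI gland 1, 4 of the 7 rises were called. Trp53 and the cyclin genes Ccnb1 and Ccne1 were not tested.

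DNA repair and checkpoint genes had 18 of 37 tested members higher and 0 lower, with a median of 0.64. In the transgenic glands this median was 0.66 against the NMRI glands. Brca1, which acts in homologous recombination, had 31.2, 22.03 and 11.7 in the glands and 714, 588 and 736 in the tumors and was at least 11.8-fold higher. Topbp1, which activates the ATR kinase, was 10.1-fold higher, Rad51ap1 8.04-fold and Rad54l at least 7.58-fold. Among Polycomb and chromatin genes 10 of 23 were higher and 0 lower (median 0.64), and the median of the transgenic glands was 0.51. Hells, a helicase needed for DNA methylation, was at least 16.6-fold higher, the deacetylase gene Hdac1 3.08-fold and the heterochromatin protein gene Cbx5 2.52-fold. BCL2 family and caspase genes stayed close to the background, with 2 of 20 higher and 0 lower: Casp2 at 2.36-fold, and Bok at 2.63-fold, whose call was lost in 16 of 25 other settings. Casp2 had 1239, 1229 and 1215 in the transgenic glands and 1499, 993 and 1335 in the tumors.

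**Figure D3:**
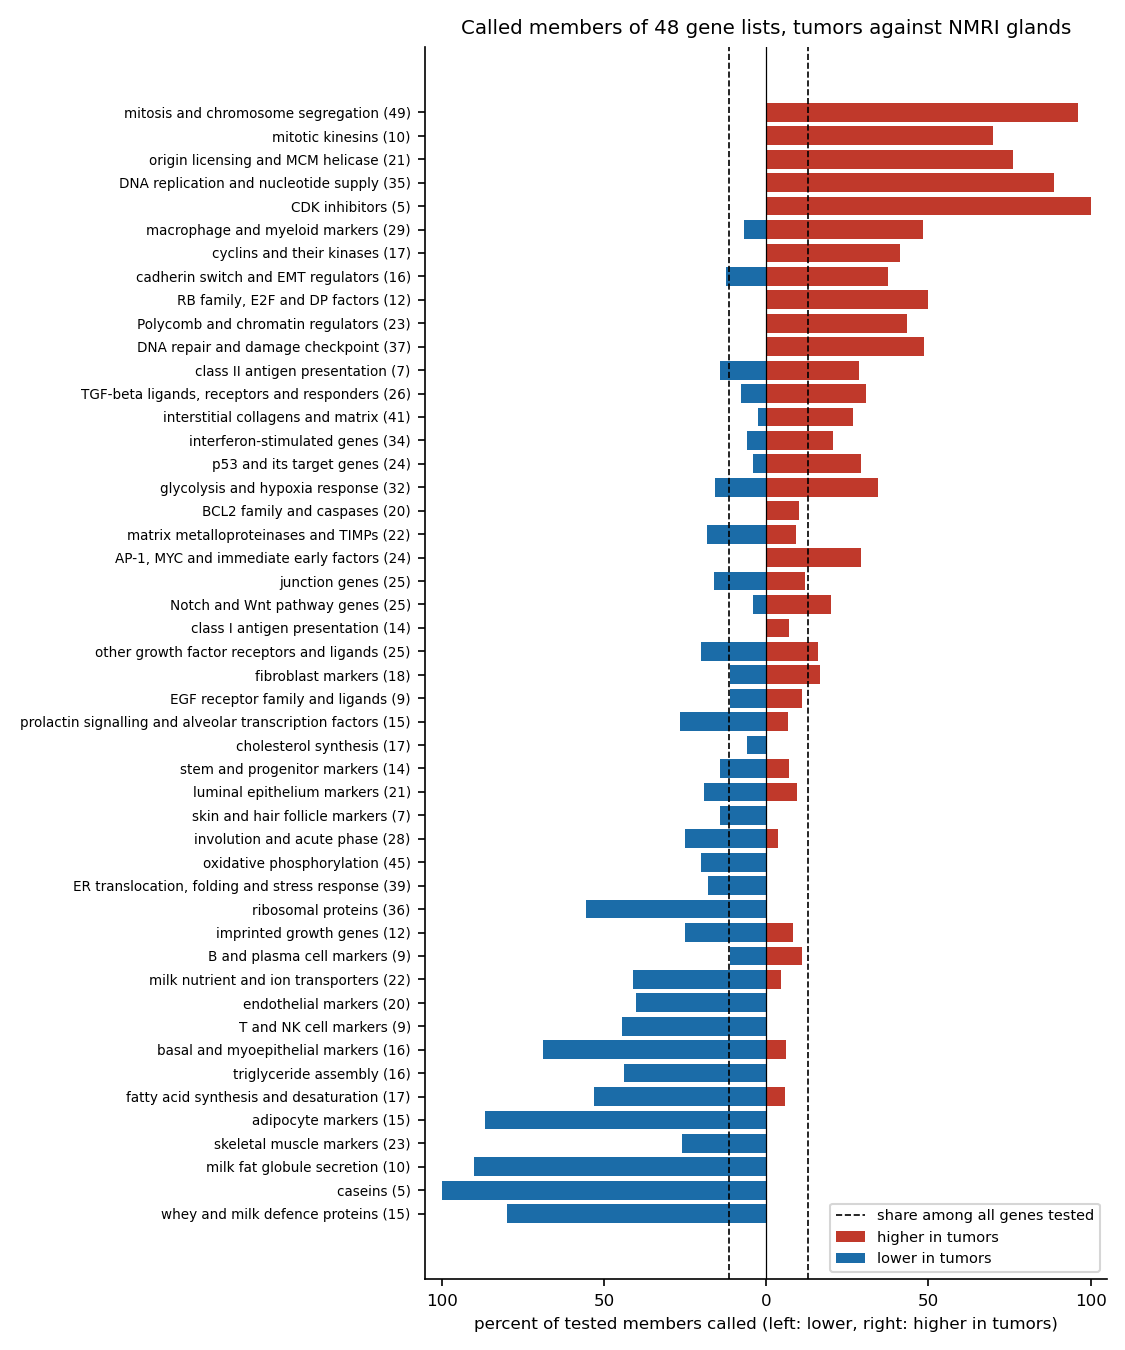
Percent of tested members of each of 48 gene lists called higher (red, right) or lower (blue, left) in tumors, ordered by the median log2 difference, with the number tested in parentheses. The dashed lines mark the shares among all genes tested, 12.9% higher and 11.6% lower; milk, adipocyte and basal lists pass far beyond the left line and the replication and mitosis lists far beyond the right one.

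Some of the largest rises lay outside these pathways. Tesc, the calcium-binding protein tescalcin, had 9.65, 8.65 and 12.9 in the NMRI glands, 5.62, 20.2 and 7.72 in the transgenic glands and 739.8, 1184 and 2092 in the tumors. It was at least 21.3-fold higher (adjusted p = 9.22e-06), and of the lines only ME-A carried a signal, at 1643. Ecrg4, which encodes a secreted peptide, had 59.4, 57.6 and 95.4 in the glands, 159.5, 57.6 and 537 in the transgenic glands and 2349, 2071 and 428 in the tumors, lowest in tumor 3, and was 18.5-fold higher. F3, tissue factor, which starts blood clotting, had 51.2, 59.3 and 85.4 in the glands, 331, 281 and 349.8 in the transgenic glands and 704, 1025 and 2239 in the tumors, highest in tumor 3, 17.7-fold higher. Hey1, a Notch target, had nearly equal signals in the tumors, 722, 744 and 660.3, against 65.4, 28.2 and 61.7 in the glands and 41.8, 27.9 and 73.9 in the transgenic glands. It was 11.5-fold higher (adjusted p = 5.00e-06), while of the other 24 tested Notch and Wnt pathway genes 4 were higher and 1 lower, with Notch2 at 1.98-fold. The 5 rises of that list were 2 without NMRI gland 1 and 3 without NMRI gland 2, tumor 2 or tumor 3.

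Immediate early and MAP kinase response genes had 7 of 24 higher and 0 lower, though the list's median was only 0.08. The orphan receptor gene Nr4a1 had 269, 202 and 215 in the glands, 262, 288 and 271 in the transgenic glands and 944, 1079 and 802 in the tumors, 4.12-fold higher (adjusted p = 0.000100). Dusp6, the phosphatase that restrains ERK, was 6.12-fold higher, Egr1 4.20-fold and Myc 2.41-fold. Egr1 was as high in the transgenic glands, at 1873, 3221 and 4068, against 4212, 2482 and 2581 in the tumors. Dusp6 had 335, 463 and 1092 in the transgenic glands and 3777, 2882 and 1440 in the tumors. Among EGF receptor genes and ligands the ligand Hbegf was 4.42-fold higher and the ligand Egf 3.54-fold lower. Egf had 439, 256 and 194 in the glands and 63.5, 90.4 and 86.03 in the tumors. The receptors were not called: Egfr had a log2 difference of -0.58 ± 0.27 and Erbb2 one of 0.58 ± 0.28 (adjusted p = 0.148 and 0.160). Of the FGF receptors, Fgfr3 was 4.40-fold higher and Fgfr1 3.26-fold higher, each lowest in tumor 3 (1644, 1002 and 485 for Fgfr1 in tumors 1 to 3), and the ligand Fgf1 was 2.75-fold lower. Igfbp3, which binds insulin-like growth factors, was at least 7.99-fold higher.

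Epithelial genes changed unevenly. The luminal keratin genes Krt8 and Krt18 had 3249, 5456 and 4988 and 3323, 6649 and 8406 in the glands and 3580.4, 5317 and 4131 and 3789, 6689.9 and 5073 in the tumors. Both overlapped and neither was called (adjusted p = 0.888 and 0.746). Cdh1, E-cadherin, had 881, 1573 and 1723 in the glands and 2024, 1892 and 2121 in the tumors, without overlap, and was not called (adjusted p = 0.157). Prom1, or CD133, one of the luminal markers listed, rose from 40.2, 92.4 and 128 to 1151, 899 and 1503, or 13.2-fold (adjusted p = 0.000109), while Cd24a fell 2.51-fold. Luminal markers as a list had 2 of 21 higher and 4 lower. Without NMRI gland 1, 2 or 3 the count of lower ones was 2 each time.

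Of the markers of basal and myoepithelial cells, which contract around the alveoli, 11 of 16 tested were lower and 1 higher, with a median of -1.26. Krt5 had 413, 396 and 517 in the glands, 438, 458 and 446 in the transgenic glands and 69.3, 22.99 and 14.6 in the tumors. It was 7.17-fold lower (adjusted p = 9.22e-06), with tumors 2 and 3 under the floor. The smooth muscle myosin gene Myh11 was 6.59-fold lower, the actin gene Acta2 3.66-fold and Cnn1, calponin, at least 5.51-fold. The member that rose was Lgals7, with a log2 difference of 1.34. Without NMRI gland 2, NMRI gland 3 or tumor 3 the count of lower members was 7. The list's mean log2 signal was 8.95 to 9.41 in the glands and 7.48 to 8.18 in the tumors.

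Gap junction genes of the alveolar epithelium had large falls of their own. Gjb6 had 846, 904 and 858 in the glands, 30.1, 37.7 and 50.3 in the transgenic glands and 34.7, 21.2 and 36.5 in the tumors, all of the latter under the floor, and was at least 15.1-fold lower (adjusted p = 1.54e-06). Gjb2 fell from 2132, 3467 and 4333 to 80.5, 134 and 876, with tumor 3 highest among the tumors, or 15.02-fold. The claudin gene Cldn8 was 13.01-fold lower, whereas Dsp, desmoplakin, was 3.16-fold higher. Over all junction genes 3 of 25 were higher and 4 lower, and without NMRI gland 2 or 3 the lower ones were 2. The higher ones were 1 without NMRI gland 1, NMRI gland 2 or tumor 2. Of genes of the cadherin switch, 6 of 16 were higher and 2 lower. The fibronectin gene Fn1 was 3.38-fold higher, while Vim, vimentin, at 1.76-fold, lost its call in 8 of 26 settings. Snai2, a repressor of E-cadherin also found in basal cells, was 2.42-fold lower, a call lost in 6 of 18 other settings. The count of higher members was 3 without NMRI gland 1, NMRI gland 2 or tumor 2.

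Matrix genes had 11 of 41 tested members higher and 1 lower, with a median of 0.52. Plod2, which hydroxylates collagen lysines, had 107, 97.6 and 115 in the glands and 2233, 1360.4 and 1232 in the tumors, 14.7-fold higher (adjusted p = 4.54e-06). Col11a1, a fibrillar collagen gene, had 114, 142 and 104 in the NMRI glands, 114, 143 and 100.3 in the transgenic glands and 1028, 1467 and 3231 in the tumors. The tumors were 14.2-fold higher than the NMRI glands, with tumor 3 highest, and the 6 glands of both genotypes lay within one narrow range. Col12a1 was 3.81-fold higher, and the main bone and skin collagen gene Col1a1 had 1491, 724 and 744 against 4338, 1337 and 1039 and was not called (adjusted p = 0.164). Without tumor 1 or tumor 2 the count of higher matrix genes was 7, and without tumor 1 the lower ones were 4 and the median 0.07. Among proteases and their inhibitors, the collagenase gene Mmp13 was at least 9.19-fold higher (771, 1195 and 159.9 in tumors 1 to 3) and the inhibitor genes Timp2 and Timp4 were 4.01-fold and 2.93-fold lower. TGF-beta pathway genes had 8 of 26 higher and 2 lower, among them Ltbp2, which anchors TGF-beta in the matrix, 6.54-fold higher. That count of 8 was 4 without NMRI gland 1, tumor 1 or tumor 2 and 5 without tumor 3.

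Markers of other cell types differed in level between the groups, and their part in the differences above was not tested. The mean log2 signal of adipocyte markers was 10.66, 10.55 and 10.80 in NMRI glands 1 to 3, against 9.70, 7.47 and 7.35 in tumors 1 to 3. Of 15 tested markers 13 were lower and 0 higher (median -2.16), with Cebpa and Cav1 not called. Adipoq, the adipocyte hormone adiponectin, had 4203, 2827 and 6166 in the glands and 1946, 87.7 and 42.5 in the tumors and was 19.5-fold lower (adjusted p = 0.0113). Cd36, the fatty acid transporter of fat and secretory cells, was 37.8-fold lower and Lpl, lipoprotein lipase, 15.5-fold lower. The count of 13 was 6 without NMRI gland 1, tumor 2 or tumor 3 and 8 without NMRI gland 3.

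For skeletal muscle markers it was 10.02, 9.07 and 9.54 in the NMRI glands and 9.18, 6.25 and 6.13 in tumors 1 to 3, so tumor 1 stood with the NMRI glands. The transgenic glands had 6.61, 6.74 and 9.84, so transgenic glands 1 and 2 lay nearer to tumors 2 and 3. The list had 6 of 23 markers lower and a median of -2.64, but its count rested on single arrays. It was 17 without tumor 1 and 18 without transgenic gland 3, 2 without NMRI gland 2, 1 without NMRI gland 3 or tumor 3 and 0 without NMRI gland 1 or tumor 2. Endothelial markers had 8 of 20 lower and 0 higher (median -1.03), among them the angiopoietin receptor gene Tek, 3.04-fold lower, and the VEGF receptor gene Flt1, 2.18-fold lower. That count was 4 without NMRI gland 1 or 3 and 3 without tumor 2 or 3, and Pecam1 was not called (adjusted p = 0.352).

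**Figure D4:**
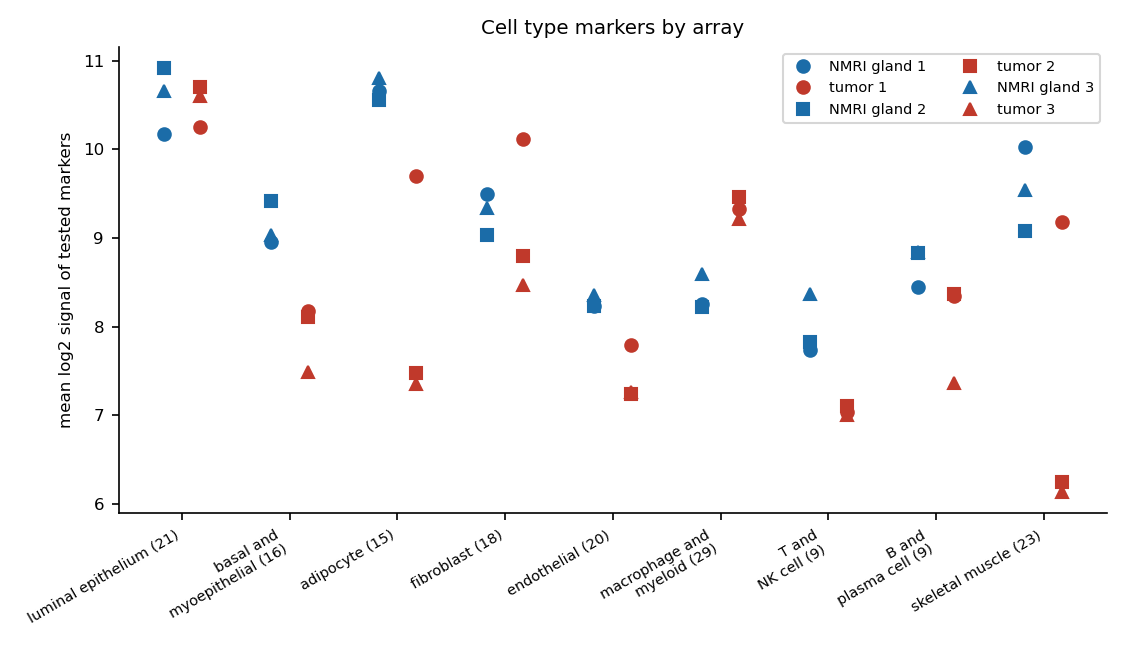
Mean log2 signal, with the floor applied, of the tested markers of 9 cell types (vertical axis) in NMRI glands 1 to 3 (blue) and tumors 1 to 3 (red), with the number of markers in parentheses. Tumor 1 lies nearer to the glands than the other tumors for adipocyte (9.70) and skeletal muscle markers (9.18), and all tumors lie above the NMRI glands for macrophage markers. The transgenic glands are not shown.

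Macrophage and myeloid markers were higher in every tumor, with mean log2 signals of 8.25, 8.22 and 8.59 in the NMRI glands and 9.32, 9.46 and 9.21 in the tumors. The transgenic glands had 8.61, 9.55 and 8.95, all above the NMRI glands, and transgenic gland 2 lay above every tumor. Of 29 tested, 14 were higher and 2 lower in the tumors (median 1.01). The list's median in the transgenic glands against the NMRI glands was 0.75. The complement genes C1qb and C1qc, made by tissue macrophages, were 3.46-fold and 3.19-fold higher, and Fcgr3, an antibody receptor, was 2.55-fold higher. C1qb had 354, 433 and 337 in the glands, 1260.1, 1088 and 1557 in the tumors and at most 62.2 in the lines. Lgals3, galectin-3, was 10.96-fold higher, and the 3 lines also had signals of 4761, 3594 and 2901. The count of 14 was 8 without NMRI gland 1, 7 without NMRI gland 2 and 9 without tumor 3.

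Of 18 tested fibroblast markers 3 were higher and 2 lower, with a median of -0.03. Without tumor 1 the lower ones were 6 and the median -0.44, and without NMRI gland 2 the higher ones were 1. Mgp, matrix Gla protein, an inhibitor of calcification, had 571, 287 and 554 in the glands and 3939, 2599.6 and 2276 in the tumors, without overlap, and was 6.36-fold higher (adjusted p = 0.000422). Gsn, gelsolin, which severs actin filaments, went from 6904, 5588 and 8243 to 2607, 2523 and 479.5 and was 4.65-fold lower, with tumor 3 lowest. The proteoglycan gene Dcn, decorin, had 2955, 456 and 664 in tumors 1 to 3 against 4413, 3631 and 3188 in the glands, and its 3.85-fold fall lost its call in 7 of 26 other settings. Of 7 tested class II presentation genes 2 were higher and 1 lower, among them Ctss, cathepsin S, at 3.54-fold higher. The class II chain gene H2-Eb1 had 247, 212 and 405 in the glands and 2876, 1859 and 369 in the tumors. The lowest tumor, tumor 3, overlapped the glands, and the 4.53-fold rise lost its call in 7 of 26 other settings. Among imprinted growth genes 3 of 12 were lower and 1 higher, with Nnat, neuronatin, 3.48-fold lower and the growth factor gene Igf2 1.98-fold lower, the latter with its call lost in 13 of 24 other settings.

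T and NK cell markers had 4 of 9 lower and 0 higher (median -1.14), with mean log2 signals of 7.74 to 8.37 in the glands and no more than 7.10 in any tumor. The 4 were Gzma and Gzmb, granzymes of cytotoxic cells, at 7.32-fold and at least 3.32-fold lower, the IL-2 receptor gene Il2rb at 4.40-fold and the NK receptor gene Klrd1 at least 2.95-fold, the last with its call lost in 9 of 24 other settings. Gzma had 428, 358 and 492 in the glands and 44.7, 58.1 and 36.9 in the tumors, with no overlap (adjusted p = 3.49e-05). The T cell receptor subunit gene Cd3e was not called, at a log2 difference of -1.14. The other 4 members not called had differences above 0, so the list did not fall as a whole. Without NMRI gland 3, 6 members were tested and 2 were lower. Of the antibody genes, Jchain was 3.90-fold lower, a call lost in 7 of 26 settings, and Igha had 3593, 4965 and 2911 in the glands and 2468, 833 and 239.5 in the tumors (adjusted p = 0.0569).

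Interferon-stimulated genes had 7 of 34 higher and 2 lower (median 0.48), a count of 7 that was 3 without tumor 1 and 4 without NMRI gland 1 or 2. Oasl2 and Oas1a, sensors of double-stranded RNA or their relatives, were 4.97-fold and 3.35-fold higher, and Isg20, an exonuclease gene, was 3.04-fold lower. Class I presentation genes had 1 of 14 higher, the immunoproteasome gene Psmb9 at 2.24-fold (call lost in 8 of 26 other settings), and B2m, the invariant chain of class I, had 8709, 8250.1 and 11137 against 7468, 7513 and 7385 and was not called. The class I gene H2-D1 depended on the probe set. On the one that stood for the gene, tumor 1 had 160.3, tumors 2 and 3 had 5156 and 6438 and the glands 5942, 8598 and 7490.4. On a second, tumors 1 to 3 had 5479, 2701 and 726 and the glands 13.1, 19.8 and 78.8. Of 7 H2-D1 probe sets 3 were called higher and 0 lower, and the gene is given no direction.

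Glycolysis and hypoxia response genes had 11 of 32 higher and 5 lower (median 0.36). Pdk3, which shuts pyruvate out of mitochondria, was at least 7.54-fold higher, with 7.97, 5.21 and 9.93 in the glands and 338, 419 and 574 in the tumors. The carbonic anhydrase gene Car12 was 8.23-fold higher and P4ha1, which hydroxylates collagen prolines, 3.17-fold. Ndrg1, also raised by low oxygen in many cells, was 3.84-fold lower, at 6703, 9884 and 9642 against 2508, 3249 and 1385. Its call was lost in 2 of 26 other settings, among them the use of the probe set with the largest SD.

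Genes of protein synthesis and secretion showed smaller shifts. In translocation, folding and stress response of the endoplasmic reticulum 7 of 39 were lower and 0 higher (median -0.44), with the translocon-associated gene Ssr4 3.31-fold lower and the chaperone gene Dnajb9 2.56-fold lower. That count was 3 without NMRI gland 1 or tumor 1 and 4 without NMRI gland 2 or tumor 2. The list's median in the transgenic glands against the NMRI glands was also -0.44. Of 36 tested ribosomal protein genes (61 listed) 20 were lower and 0 higher, with a median of -0.55, with Rpl4 1.79-fold and Rps7 1.72-fold lower. After quantile normalization their median was 0.09 and 0 were lower, and without NMRI gland 1, tumor 2 or tumor 3 the count was 10, 12 or 13. The highest signal on an array was 16108 to 19719.7 in the glands and 9348 to 10429 in the tumors, so the arrays also differed at their bright end, whose part in this list was not tested. Oxidative phosphorylation genes had 9 of 45 lower and 0 higher (median -0.41), with Ndufa1 2.56-fold lower; 2 were lower after quantile normalization, 4 without NMRI gland 1 and 3 without tumor 2.

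The 3 tumors were not alike. The median range over the tumors was 0.57 on the log2 scale, against 0.52 over the glands, but 248 genes ranged by 4-fold or more over the tumors and 120 over the glands. Tumor 1 departed by 4-fold or more from both others, which were within 2-fold of each other, in 52 genes, of which it was the highest in 42. The furthest were muscle genes: the skeletal actin gene Acta1 had 3013, 69.5 and 65.7 in tumors 1 to 3 and the troponin gene Tnnc2 1982, 7.35 and 3.31. The NMRI glands, at 4234, 2875 and 2355 for Acta1, were in the range of tumor 1. Tumor 3 departed in 45 genes, of which it was the lowest in 40. Krt19, a luminal keratin gene, had 1489.6, 1619 and 106 in the tumors and 3126, 4708 and 3285 in the glands, and the desmosome gene Pkp1 had 1945, 1542 and 107 against 59.9, 56.6 and 209. Both were called, Krt19 lower and Pkp1 higher, with calls lost in 18 of 26 and 13 of 25 other settings. Bex1 and the claudin gene Cldn10 were highest in tumor 3, at 69.1, 18.4 and 1349 and 151, 194 and 2701 in tumors 1 to 3. Tumor 2 departed in only 8 genes, with the amylase gene Amy1 at 88.7, 6022 and 22.99 and the lactoperoxidase gene Lpo at 17.7, 344 and 17.3 in tumors 1 to 3.

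**Figure D5:**
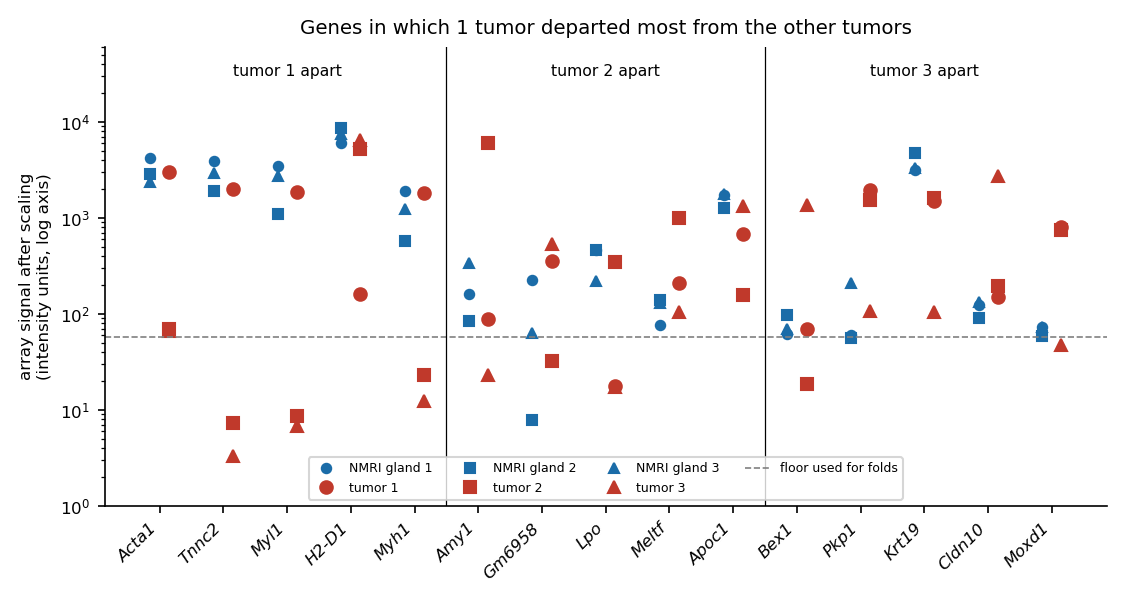
Signals on a log axis of the 15 genes in which 1 tumor departed most from both others, 5 for each tumor, with NMRI glands in blue, tumors in red, the shape giving the sample number and the dashed line the floor. Tumor 1 stands with the NMRI glands for Acta1, Tnnc2, Myl1 and Myh1, and tumor 3 lies far below the other tumors for Pkp1, Krt19 and Moxd1.

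Within the NMRI glands the widest ranges were found for Malat1, a nuclear non-coding RNA, at 3830.1, 1361 and 23.8 in glands 1 to 3, and for Ucp1, the uncoupling protein of brown fat, at 9.31, 148 and 1829. Malat1 was lowest in gland 3, the array with the highest Gapdh ratio, and was not called between the groups (adjusted p = 0.631). Fdps, an enzyme of cholesterol synthesis, was also lowest in gland 3, at 906, 1170.2 and 107.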

How the data were processed

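Total RNA of frozen tissue pieces was labelled and hybridised to single-color Affymetrix arrays, per the labels, 1 array per sample. The deposited intensity values are the authors' MAS5 signals, per the submitters' processing notes; neither the version nor the scaling target is known from these sources. No scan date or batch is given. Of 22690 probe sets, 64 controls, 691 with several genes and 1555 with none in the platform annotation were left out, which leaves 20380 probe sets of 12393 genes. Arrays were scaled to a common 2% trimmed mean, which differed by 1.19 times before, and 67.7% to 72.5% of probe sets lay above the floor of 57.5, the 30th percentile. Each of 4956 genes with several probe sets was represented by the brightest one. Genes with at least 3 of 9 tissue arrays above the median signal were tested.

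The fit used limma 3.58.1 in R 4.3.3 (lmFit, eBayes with trend, two-sided) on log2 values of the 9 tissue arrays in 3 groups (residual degrees of freedom: 6), and p-values were adjusted over all genes tested by the Benjamini-Hochberg method. The scripts were tested on simulated data. The 49 gene lists (1256 genes, 1109 with a probe set, 945 tested) and the members compared were chosen with earlier results of these data known. Named genes were the 15 largest rises and 15 largest falls without overlap, the 4 smallest p per list, a list of fixed genes, the 6 widest ranges per group and the 5 departures per tumor. List members named outside that rule, as the ones not called, were chosen after their values were seen. Of 7898 genes tested, 6409 had a promoter window. Other normalizations, floors, filters, probe set rules and tests, and leaving out arrays, were tried.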

Additional observations from a re-analysis of the deposited data

How the results depend on the processing

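The number of genes called was 1228 to 2274 when 1 of the 9 tissue arrays was left out, against 1942, with 699 to 1189 higher and 529 to 1085 lower. The lower end came each time without NMRI gland 1. An unequal-variance test of single genes on 3 against 3 arrays called 149 genes, 85 higher and 64 lower, of which 145 were among the 1942. Without NMRI gland 3 and tumor 1 together, an alternative chosen after seeing the data, 1010 genes were called, 550 higher and 460 lower, and 956 of them were among the 1942. In that fit 45 of the 47 mitosis genes, 26 of the 31 replication genes and all 5 caseins were still called. With the replicate number as a block, 2152 genes were called, 1152 higher and 1000 lower, and of 186 named genes with a call 3 lost it (Bok, Igf2 and Pkp1). Deviations of same-numbered tumors and NMRI glands correlated at 0.01, 0.16 and -0.10, and those of same-numbered NMRI and transgenic glands at 0.22, 0.37 and 0.37, so the numbers may pair the glands but were not taken to pair the tumors with them. Gapdh ratios were 12.9, 2.28 and 40.3 in NMRI glands 1 to 3 and 10.7, 2.49 and 22.5 in transgenic glands 1 to 3. The part of RNA quality in these correlations was not tested. Higher genes made up 47.4% to 59.6% of the calls over all settings. The log2 difference of H2-D1, -2.06 and not called, became 4.78 after quantile normalization, 4.16 with the floor at the 50th percentile, 1.11 with the mean of its probe sets and 5.33 with the probe set of largest SD. It was -2.15 to 5.44 over the fits without 1 array, positive in 5 of 9 of them, and 3.66 without NMRI gland 3 and tumor 1; its probe sets differ, as described above. Over 234 named genes and 26 settings, 448 values lost their call and 68 gained one. A further 10 changed sign where either fit held a call (all of H2-D1). The remaining 5423 did none of these, and include any sign changes of values called in neither fit. Signal over background limits genes near the floor, whose folds are bounds, and 3 arrays per group limit the rest. Tumor and stage of the gland cannot be told apart.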
